A study of Mus musculus with 8 samples.

Results

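The genes described here encode proteins of the spliceosome and the hnRNP proteins. They are the protein-coding genes whose GENCODE symbol begins with Snrp, Lsm, Srsf, Hnrnp, Sf3a or Sf3b, with Snrpn left out, and 65 of the 22430 genes listed in the count table met that rule. The rule used names alone and no measured value. The comparison was made over 4 classes: 24 Sm and Lsm genes, 12 SR genes, 20 hnRNP genes and 9 SF3 genes. Poly(A)-selected Illumina libraries were made from brain hemispheres of male C57Bl/6JRj mice, untreated as far as the labels and methods state, with 4 animals aged 6 months (6m) and 4 aged 24 months (24m). The labels give the tissue as whole brain. The question was which splicing genes differed in level between the young-adult and the aged brain, and 64 of the 65 genes passed the filter on low counts. Srsf19 had 0 counts in all 8 libraries and was not tested.

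The Sm proteins assemble into a ring around the small nuclear RNAs U1, U2, U4 and U5, and the related Lsm proteins form a like ring on the end of U6 snRNA or, with another subunit, on messenger RNAs that enter decay. SR proteins bind exons and help the spliceosome find nearby splice sites, whereas many hnRNP proteins bind introns or exons and favour skipping. The SF3A and SF3B complexes belong to the U2 snRNP and hold it at the branch site. Neurons splice very many of their transcripts alternatively, and balances between these proteins are known to shift exon choice.

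Library totals ran from 63460940 to 103462414 counts, and the 65 genes together took 0.544 ± 0.0186% (SD, n = 4) of the counts at 6m and 0.529 ± 0.0328% (SD, n = 4) at 24m. The labelled tissue was checked against markers of 7 cell types, all of which were detected. The summed level of the 12 neuron markers was 6029 to 6624 CPM (reads counted for a gene per 1000000 counted) at 6m and 7178 to 7592 CPM at 24m, with 3 called higher and 1 lower. The 10 astrocyte markers summed to 2961 to 3895 and 2930.1 to 3900.4 CPM, but their median fold change on the log2 scale was 0.97, and 6 were higher and 1 lower. The 10 endothelial markers summed to 86.6 to 125 and 55.2 to 81.2 CPM (2 higher, 3 lower), and the 6 choroid plexus markers to 1781 to 3206 and 825 to 2259 CPM (2 higher, 0 lower). The 10 oligodendrocyte and 10 microglia markers had 2 called higher each, 0 lower, and sums that overlapped between ages. All 5 blood markers were called lower, and their sum was 5426 to 7605 and 1242 to 4156 CPM. Mitochondrially encoded genes took 6.07 ± 0.555% of counts at 6m and 3.33 ± 0.241% at 24m, with no overlap between the ages (SD, n = 4, two-sided exact permutation test, p = 0.0286, the smallest this design allows). The 24m replicate 1 library stood between the ages: its mean Spearman correlation across genes was 0.979 with the other 24m libraries and 0.978 with the 6m libraries, against 0.986 to 0.992 within their own age for the other 24m libraries. The part of these differences in the values below was not tested. In such bulk samples, fewer cells of a type and less RNA per cell cannot be told apart.

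Most Sm and Lsm genes were lower in the aged brain, whereas most genes of the other classes were not called. A gene was called where its adjusted p was at most 0.05 in edgeR's quasi-likelihood test and its log2 fold change, 24m against 6m, was at least 0.58 in size. By this rule 18 of the 24 Sm and Lsm genes were lower and 2 higher, 2 of 11 tested SR genes were lower and 1 higher, 1 of 20 hnRNP genes was lower and 3 higher, and 2 of 9 SF3 genes were lower and 0 higher. Over all 16730 genes tested, 18.3% were called lower and 25.3% higher. The median log2 fold change was -0.80 for Sm and Lsm genes, -0.056 for SR, -0.044 for hnRNP and -0.057 for SF3 genes, beside -0.0034 over all genes tested. Of the 64 tested genes 23 were called lower, 6 were called higher, 17 had a low enough adjusted p with too small a fold, and 18 did not pass the adjusted p. All 4 24m libraries lay below all 4 6m libraries in 34 of the 64 genes, where 26.8% of all genes did so, and above them in 7, where 28.4% of all genes did so. When libraries were scaled by their totals alone, the median of all genes moved to 0.21. The medians of the SR, hnRNP and SF3 classes then changed sign, to 0.16, 0.18 and 0.16, while that of the Sm and Lsm genes stayed below 0 at -0.60. Of the 24 Sm and Lsm genes 12 were then called lower. With the trend of fold change over exonic or canonical transcript length removed, 15 and 10 of the 24 were called lower. The hnRNP median also changed sign with DESeq2 on quantile-normalized counts (0.055) and on leaving out only 24m replicate 1 (0.044), only 6m replicate 2 (0.0041) or only 6m replicate 3 (0.0022), and the SF3 median with DESeq2 on quantile-normalized counts (0.01).

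**Figure D1:**
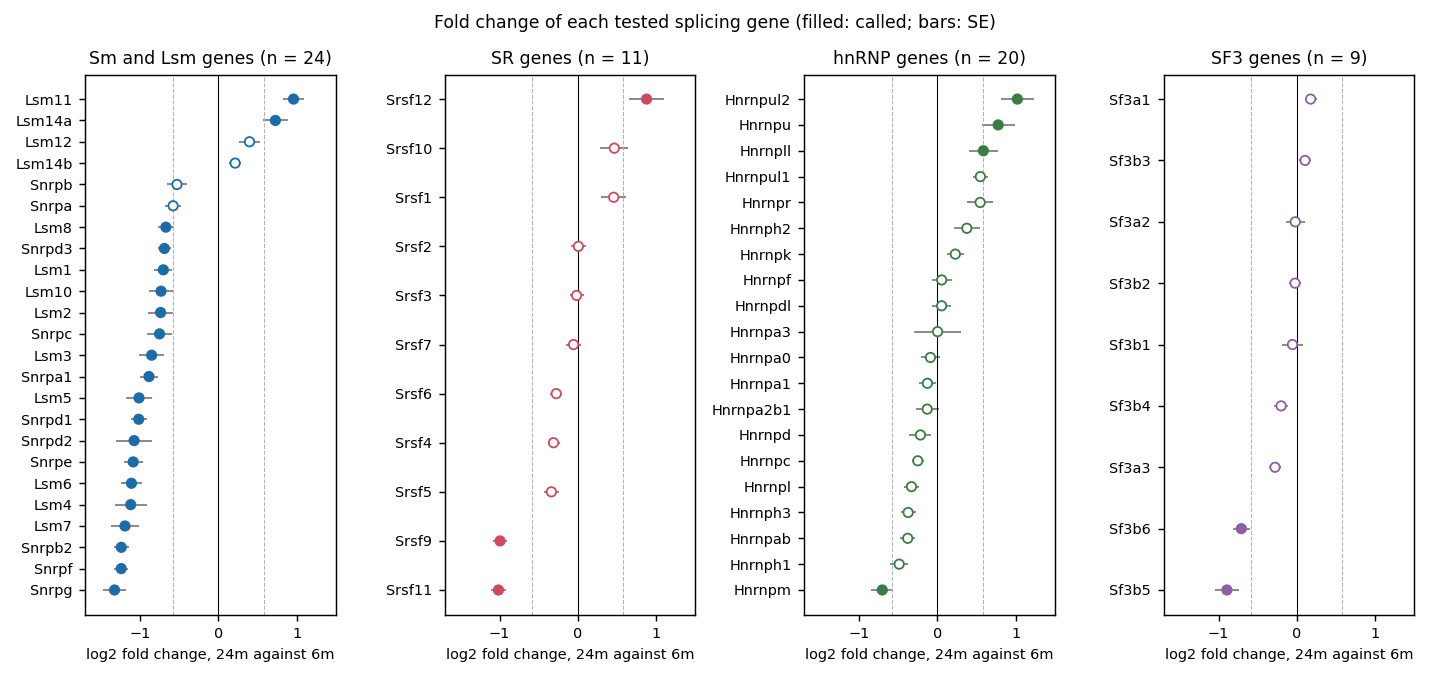
Log2 fold change (24m against 6m, edgeR) of each of the 64 tested genes by class, with SE bars; filled points were called, open points were not, and dashed lines mark 0.58 in either direction. The Sm and Lsm genes ran from -1.33 to 0.96 with 18 called lower, while most SR, hnRNP and SF3 genes lay within the dashed lines.

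The 7 genes of the Sm core ring were all lower at 24m by the adjusted p, and 6 of them were called. Here and below, the 4 values at each age are those of replicates 1 to 4, and a log2 fold change stands with its SE. Snrpg, a subunit of the ring, had 54.4, 46.2, 46.9 and 48.9 CPM at 6m and 25.1, 18.9, 19.6 and 14.7 CPM at 24m. The ages did not overlap, and the mean went from 49.1 ± 3.73 CPM (SD, n = 4) to 19.6 ± 4.26 CPM (SD, n = 4). Its log2 fold change of -1.33 ± 0.15 at an adjusted p of 0.000112 was the lowest value among the 64 genes (GRCm39, chr6:86348286-86356310, + strand). Snrpf, a partner of Snrpe and Snrpg in ring assembly, had 47.0, 41.5, 42.9 and 44.3 CPM at 6m and 20.3, 18.2, 18.7 and 17.0 CPM at 24m (chr10:93418609-93425568, - strand). The aged libraries lay close together and far below the young ones, with a log2 fold change of -1.24 ± 0.087 at an adjusted p of 2.05e-05. The other Sm genes called lower were Snrpe (-1.09 ± 0.12), Snrpd2 (-1.08 ± 0.23), Snrpd1 (-1.02 ± 0.10) and Snrpd3 (-0.69 ± 0.085). With the canonical length trend removed Snrpe (-0.19), Snrpd2 (-0.57) and Snrpd1 (-0.13) lost their calls. With the exonic length trend removed Snrpf (-0.54) and Snrpd3 (-0.50) lost theirs.

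Snrpb, which encodes the SmB protein, was the Sm core gene nearest to no change. It had 207, 192, 195 and 221 CPM at 6m and 182, 136, 133 and 115 CPM at 24m. All aged libraries were below all young ones, but the log2 fold change of -0.53 ± 0.13 at an adjusted p of 0.00631 fell short of the fold threshold. Within each library, the ratio of Snrpg to Snrpb counts, which does not depend on how libraries are scaled, was 0.263, 0.240, 0.241 and 0.221 at 6m and 0.138, 0.139, 0.147 and 0.128 at 24m. The ages did not overlap in this ratio, a description only, since the pair holds the largest and smallest fold changes of the ring and, like the other pairs compared as ratios, was picked after its values were seen. The ratio still carries any trend with gene length. With the exonic length trend removed, Snrpg stood at -0.72 and Snrpb at -0.62, and Snrpb was then called lower. With the canonical length trend removed they stood at -0.62 and 0.13. Snrpd2 showed the widest spread of the ring: its 24m values were 189, 102, 102 and 83.1 CPM, against 268, 237, 231 and 268 CPM at 6m. Replicate 1 of the 24m group was the highest aged library for each of the 7 Sm core genes, as the plot of levels in each library shows.

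All 7 genes of the Lsm2 to Lsm8 ring, which binds U6 snRNA, were called lower. Their median log2 fold change was -1.01, close to the -1.08 of the Sm core. Lsm7 had 108, 92.4, 90.8 and 101 CPM at 6m and 61.5, 39.6, 38.1 and 32.3 CPM at 24m, a log2 fold change of -1.19 ± 0.18 at an adjusted p of 0.000472. Lsm4, the ring gene with the highest CPM, had 212, 171, 179 and 204 CPM at 6m and 132, 78.7, 79.0 and 62.1 CPM at 24m, a log2 fold change of -1.12 ± 0.21 at an adjusted p of 0.00131. Lsm8, the subunit particular to the nuclear ring, had the smallest change of the ring, with 15.7, 14.9, 15.1 and 12.9 CPM at 6m and 9.32, 9.62, 9.64 and 8.24 CPM at 24m and a log2 fold change of -0.67 ± 0.10 at an adjusted p of 0.000534. The aged libraries were below the young ones without overlap for all 7 ring genes. Lsm5 was the least abundant of them by CPM, at 5.82 ± 1.07 CPM (SD, n = 4) and 2.88 ± 0.459 CPM (SD, n = 4), with a log2 fold change of -1.01 ± 0.17 at an adjusted p of 0.000765. Lsm1 replaces Lsm8 in the cytoplasmic ring that takes part in messenger RNA decay, and it fell too (log2 fold change of -0.70 ± 0.12 at an adjusted p of 0.000717). The count ratio of Lsm1 to Lsm8 was 2.17 ± 0.312 at 6m and 2.11 ± 0.288 at 24m (SD, n = 4), and the ages overlapped. With scaling by library totals alone, Lsm2 (-0.53), Lsm8 (-0.46) and Lsm1 (-0.49) lost their calls, as did Snrpd3 (-0.47), Snrpc (-0.54) and Lsm10 (-0.52) elsewhere in the class. With the canonical length trend removed, the ring genes Lsm2 (0.070), Lsm5 (-0.065) and Lsm8 (-0.55) were not called. With the exonic length trend removed, Lsm2 (-0.49) and Lsm5 (-0.34) were not.

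**Figure D2:**
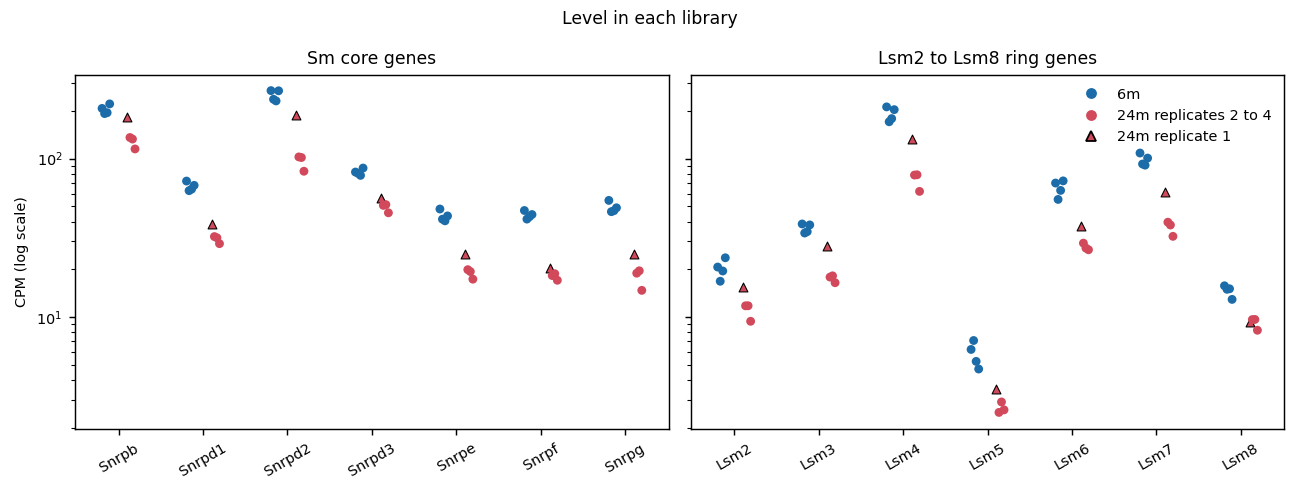
CPM (log scale) of the Sm core genes (left) and the Lsm2 to Lsm8 ring genes (right) in each library; blue points are 6m, red points 24m, and the outlined triangle is 24m replicate 1. In all 14 genes the 4 24m libraries sat below the 4 6m libraries, and in 13 of the 14 the triangle was the highest aged value.

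The 4 Snrp genes for proteins particular to U1 or U2 snRNP were all lower at 24m by the adjusted p, and 3 were called. The SF3 genes, also of U2 snRNP, are described below and did not all fall. Snrpb2, the U2-B'' protein, which binds a stem-loop of U2 snRNA with Snrpa1, had 37.3, 33.3, 33.6 and 31.4 CPM at 6m and 15.7, 14.6, 13.0 and 14.1 CPM at 24m (chr2:142904904-142915166, + strand). The highest aged value was below every young one, and the log2 fold change of -1.24 ± 0.093 at an adjusted p of 2.42e-05 was the third lowest among the 64 genes. Snrpa1, the U2-A' protein, was also called lower (-0.89 ± 0.12). Snrpc, the U1-C protein that helps U1 snRNP settle on the 5' splice site, was lower as well (-0.75 ± 0.16). Snrpa, the U1-A protein, had 145, 134, 137 and 171 CPM at 6m and 109, 97.7, 99.7 and 87.1 CPM at 24m. It did not overlap between ages, and its log2 fold change of -0.579 lay just inside the fold threshold of 0.58 (adjusted p = 0.0011), so it was not called.

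The Lsm genes outside the U6 ring did not share a direction. Lsm10 and Lsm11 encode the pair of Lsm proteins that, with Sm proteins, form the ring of U7 snRNP, which processes histone messenger RNAs. Lsm10 had 15.7, 13.7, 13.9 and 16.4 CPM at 6m and 11.7, 8.64, 7.91 and 7.68 CPM at 24m, a log2 fold change of -0.73 ± 0.15 at an adjusted p of 0.00217. Lsm11 moved the other way, with 4.02, 3.49, 3.38 and 3.27 CPM at 6m and 5.79, 6.54, 6.94 and 8.28 CPM at 24m (chr11:45819091-45835787, - strand). The ages did not overlap, and the log2 fold change of 0.96 ± 0.14 at an adjusted p of 0.000379 was the highest of the class. The count ratio of Lsm10 to Lsm11 was 3.90, 3.94, 4.12 and 5.03 at 6m and 2.03, 1.32, 1.14 and 0.928 at 24m, so that no aged library reached any young one.

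Lsm14a, an Lsm-domain protein of cytoplasmic P-bodies, had 17.1, 21.3, 20.7 and 14.5 CPM at 6m and 23.8, 31.7, 30.2 and 36.3 CPM at 24m, a log2 fold change of 0.73 ± 0.16 at an adjusted p of 0.00305. Its call was lost with the GC trend (0.48) or the exonic length trend (0.41) removed. Its paralog Lsm14b, nearest to 0 in the class, had 75.6, 87.2, 86.6 and 88.2 CPM at 6m and 94.3, 98.9, 103 and 95.6 CPM at 24m. Both paralogs were higher in every aged library than in every young one, but Lsm14b changed little (log2 fold change of 0.21 ± 0.078 at an adjusted p of 0.0358) and was not called. Lsm12, a further Lsm-domain protein, passed the adjusted p below the fold threshold (0.40 ± 0.13, adjusted p = 0.0226). The genes of the class that were higher at 24m were thus Lsm11, Lsm12, Lsm14a and Lsm14b, none of which encodes a subunit of the Sm core or of the U6 ring.

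The promoters of these genes were searched for 8 motifs on both strands. The one described in full, chosen after the shares were seen, is CCGGAAG, the core recognised by ETS family transcription factors, read as CTTCCGG on the other strand. The window ran from 250 bases before to 50 after the start of the canonical transcript. The ETS motif was in 12.8% of the promoters of 16573 tested protein-coding genes. It was in 17 of the 64 promoters here (26.6%), with 7 of 24 for Sm and Lsm genes, 4 of 11 for SR genes, 1 of 20 for hnRNP genes and 5 of 9 for SF3 genes. It was in 8 of the 23 genes called lower (34.8%, beside 26.6% of the 64) and in 0 of the 6 called higher. A share of 6 genes says little, and a link between the motif and the direction of change was not tested. Among the other motifs, in the 64 promoters against all promoters, the SP/KLF box GGGCGG was in 67.2% against 52.9%, the NFY box CCAAT in 43.8% against 38.9% and the NRF1 motif GCATGCGC in 6.25% against 4.15%. The YY1 motif AAGATGGC was in 3.12% against 2.94%, the CRE TGACGTCA in 4.69% against 2.87%, the TATA box TATAAA in 9.38% against 9.07% and the E-box CACGTG in 6.25% against 9.29%. By class, the NFY box was in 12 of 20 hnRNP, 12 of 24 Sm and Lsm, 3 of 9 SF3 and 1 of 11 SR promoters. The median GC content of the promoters was 58.7% for the 64 genes and 57.3% over all. The promoters of 4 genes called lower that hold the ETS motif, 2 Sm and Lsm genes, 1 SF3 gene and 1 SR gene, are shown first, and then that of Hnrnpul2, called higher, which does not hold it. The sequences are GRCm39, given on the strand of the gene, with the ETS motif on either strand in capitals; in Snrpe both orientations overlap in 1 stretch.
Snrpe (chr1:133537983-133538282, - strand): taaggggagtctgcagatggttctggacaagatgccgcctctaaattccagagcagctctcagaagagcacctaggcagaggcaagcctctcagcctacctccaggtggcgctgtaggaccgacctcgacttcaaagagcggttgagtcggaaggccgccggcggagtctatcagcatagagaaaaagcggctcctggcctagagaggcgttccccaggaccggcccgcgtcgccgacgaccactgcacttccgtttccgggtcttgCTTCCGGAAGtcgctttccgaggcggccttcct
Snrpb2 (chr2:142904709-142905008, + strand): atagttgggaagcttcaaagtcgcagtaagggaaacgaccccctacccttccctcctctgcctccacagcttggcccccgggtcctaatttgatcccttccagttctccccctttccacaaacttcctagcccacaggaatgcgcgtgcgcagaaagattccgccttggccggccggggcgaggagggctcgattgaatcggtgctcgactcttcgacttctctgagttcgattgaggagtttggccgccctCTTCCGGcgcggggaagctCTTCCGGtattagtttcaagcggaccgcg
Sf3b6 (chr12:4867284-4867583, + strand): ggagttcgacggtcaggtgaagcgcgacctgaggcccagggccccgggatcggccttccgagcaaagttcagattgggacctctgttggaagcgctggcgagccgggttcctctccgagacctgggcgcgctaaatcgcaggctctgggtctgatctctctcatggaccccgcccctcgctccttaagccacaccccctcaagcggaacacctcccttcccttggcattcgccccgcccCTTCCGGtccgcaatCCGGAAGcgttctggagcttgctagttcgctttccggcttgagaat
Srsf11 (chr3:157742261-157742560, - strand): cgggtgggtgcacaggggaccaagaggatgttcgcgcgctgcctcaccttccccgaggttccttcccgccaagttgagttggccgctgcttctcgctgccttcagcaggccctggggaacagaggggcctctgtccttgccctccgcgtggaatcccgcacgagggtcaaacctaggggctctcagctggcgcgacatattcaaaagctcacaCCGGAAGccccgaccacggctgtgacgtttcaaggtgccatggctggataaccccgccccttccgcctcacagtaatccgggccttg
Hnrnpul2 (chr19:8796675-8796974, + strand): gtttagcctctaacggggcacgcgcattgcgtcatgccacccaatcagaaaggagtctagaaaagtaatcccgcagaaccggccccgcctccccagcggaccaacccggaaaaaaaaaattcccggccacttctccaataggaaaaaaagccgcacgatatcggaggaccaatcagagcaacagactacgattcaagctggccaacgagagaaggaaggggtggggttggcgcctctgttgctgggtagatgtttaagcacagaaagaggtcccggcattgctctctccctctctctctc
A match says only that the letters are in the window. No binding was measured in these samples.

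Of the 9 SF3 genes 7 were not called, and the 2 called were both lower and encode small subunits of SF3B. Sf3b5 had 112, 97.0, 101 and 119 CPM at 6m and 76.4, 54.6, 55.4 and 44.8 CPM at 24m (chr10:12881087-12884927, + strand). The ages did not overlap, and the log2 fold change of -0.89 ± 0.15 at an adjusted p of 0.000859 was the lowest of the class. Sf3b6, the p14 protein that lies next to the branch-point adenosine, had 80.6, 73.2, 73.2 and 82.0 CPM at 6m and 56.4, 46.1, 45.2 and 41.1 CPM at 24m (chr12:4867516-4877669, + strand), a log2 fold change of -0.71 ± 0.11 at an adjusted p of 0.000434. Its call was lost with the canonical length trend (-0.058) or the exonic length trend (-0.40) removed and with scaling by library totals alone (-0.50). The promoter of Sf3b6 is among those shown above. Sf3b1, the large scaffold of the complex, had 86.2, 87.4, 94.6 and 66.3 CPM at 6m and 67.5, 83.1, 75.5 and 95.5 CPM at 24m. Its values overlapped widely between ages (log2 fold change of -0.057 ± 0.14 at an adjusted p of 0.731). With the canonical length trend removed the pair turned around: Sf3b1 was called lower (-0.67) and Sf3b6 was not, and with the exonic length trend removed Sf3b1 stood at -0.47, short of the fold threshold. The count ratio of Sf3b5 to Sf3b3, another large subunit, was 1.07, 0.909, 0.957 and 1.02 at 6m and 0.653, 0.465, 0.461 and 0.400 at 24m without overlap, whereas that of Sf3b6 to Sf3b1 was 0.946 ± 0.205 and 0.605 ± 0.169 (SD, n = 4) with overlap.

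Of the SF3A genes, which join SF3B to the rest of U2 snRNP, none was called. Sf3a2 was nearest to 0 in the class, with 98.5, 96.0, 89.2 and 103 CPM at 6m and 118, 92.4, 94.2 and 76.9 CPM at 24m and a log2 fold change of -0.021 ± 0.12 at an adjusted p of 0.889. Sf3a3 had 47.7 ± 1.17 CPM (SD, n = 4) and 39.3 ± 3.02 CPM (SD, n = 4), a log2 fold change of -0.28 ± 0.081 at an adjusted p of 0.0128, under the fold threshold though past the adjusted p. Sf3a1 (0.17), Sf3b2 (-0.024), Sf3b3 (0.10) and Sf3b4 (-0.20) did not pass the adjusted p; each value is a log2 fold change. The count of 0 SF3 genes called higher in edgeR was also 0 with DESeq2, with limma-voom and with DESeq2 on quantile-normalized counts, and 1 gene, Sf3a1, was higher at an unadjusted p under 0.05.

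Among the SR genes, 2 were called lower and 1 higher. Srsf11, an SR protein known for promoting the inclusion of very short exons in neurons, had 98.0, 82.6, 86.0 and 80.7 CPM at 6m and 48.2, 43.4, 38.0 and 42.3 CPM at 24m (chr3:157716110-157742310, - strand). The highest aged value was well below the lowest young one, and the log2 fold change of -1.02 ± 0.10 at an adjusted p of 6e-05 was the lowest of the class. Srsf9, an SR protein closely related to Srsf1, had 106, 99.5, 110.5 and 118 CPM at 6m and 57.0, 56.4, 56.2 and 48.5 CPM at 24m (chr5:115465189-115476335, + strand), a log2 fold change of -0.99 ± 0.087 at an adjusted p of 3.83e-05. The 4 aged libraries of both genes lay below the 4 young ones. Srsf12, an SR protein with a low level here, had 1.57, 2.46, 2.34 and 1.38 CPM at 6m and 2.72, 4.09, 3.41 and 4.01 CPM at 24m (chr4:33208971-33234051, + strand). It was higher in every aged library than in every young one (log2 fold change of 0.88 ± 0.22 at an adjusted p of 0.00651), and its lowest count in a library was 91. With DESeq2 on quantile-normalized counts its value was 0.57 and 0 SR genes were called higher.

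The other SR genes stayed within the fold threshold. Srsf2, which also binds exonic enhancers, was nearest to 0, with 59.6, 63.9, 64.3 and 53.5 CPM at 6m and 52.0, 61.4, 65.5 and 63.4 CPM at 24m and a log2 fold change of 0.0057 ± 0.10 at an adjusted p of 0.963. Srsf1, the founding member of the family, passed the adjusted p in the upward direction with 20.4, 24.2, 24.6 and 16.7 CPM at 6m and 23.3, 32.4, 27.7 and 34.6 CPM at 24m (log2 fold change of 0.46 ± 0.16 at an adjusted p of 0.0286), and its ages overlapped. Srsf10 did so as well (0.46 ± 0.18). Srsf4 (-0.31 ± 0.077), Srsf5 (-0.34 ± 0.10) and Srsf6 (-0.28 ± 0.074) passed it in the downward direction. Srsf3 (-0.017) and Srsf7 (-0.056) did not pass it. Within libraries, Srsf9 counts over Srsf1 counts gave 5.19, 4.11, 4.49 and 7.08 at 6m and 2.44, 1.74, 2.03 and 1.40 at 24m, without overlap. With the canonical length trend removed, the log2 fold changes of Srsf9 and Srsf1 were -0.32 and -0.080. With the exonic length trend removed they were -1.35 and 0.39.

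The hnRNP genes moved both ways, and the hnRNP U genes were higher. Hnrnpul2, a nuclear protein related to hnRNP U, had 70.4, 89.4, 84.0 and 63.5 CPM at 6m and 96.6, 150.0, 166 and 211 CPM at 24m (chr19:8796925-8811507, + strand). The ages did not overlap, although the aged values spread over a wide range, and the log2 fold change of 1.02 ± 0.21 at an adjusted p of 0.00244 was the highest among the 64 genes. Hnrnpu itself, a chromatin-associated RNA-binding protein, had 87.1, 102, 98.5 and 61.7 CPM at 6m and 98.8, 159, 148 and 193 CPM at 24m (chr1:178148673-178165362, - strand). Here 24m replicate 1 fell within the range of the young libraries (log2 fold change of 0.78 ± 0.21 at an adjusted p of 0.00964). Hnrnpul1 had 83.9, 98.1, 93.8 and 87.8 CPM at 6m and 115, 128, 140.0 and 149 CPM at 24m, with no overlap and a log2 fold change of 0.55 ± 0.10 at an adjusted p of 0.00112, just under the fold threshold. The median log2 fold change of these 3 genes was 0.78. The median fell to 0.27 when the trend of fold change with transcript length was removed, and Hnrnpu (0.061) and Hnrnpul2 (0.45) were then no longer called. Hnrnpu also lost its call with the GC trend (0.49) or the exonic length trend (0.34) removed.

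Hnrnpm, which binds GU-rich sites in introns, was the only hnRNP gene called lower, with 115, 109, 121 and 119.7 CPM at 6m and 50.5, 77.4, 74.9 and 82.7 CPM at 24m (chr17:33865207-33905834, - strand). Every aged library was below every young one, and replicate 1 was the lowest aged library here (log2 fold change of -0.70 ± 0.14 at an adjusted p of 0.00193). Without that library its log2 fold change was -0.56 and no longer past the fold threshold. With library totals alone it was -0.47 and not called, and the 6 hnRNP genes then called were higher. The annotation places Marchf2 over part of Hnrnpm on the same strand, so some reads could belong to either gene. Same-strand overlaps were also annotated for the called genes Hnrnpul2 (Gm50139 and an unnamed gene), Lsm3 (Gm45216), Lsm6 (Gm45446) and Snrpa1 (Gm45213). Hnrnpm had fewer counts per Hnrnpul2 count at 24m: the ratio was 1.55 ± 0.285 at 6m and 0.471 ± 0.0614 at 24m (SD, n = 4), without overlap.

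Hnrnpll, which regulates exons of signalling genes such as Ptprc, was called higher by a narrow margin. It had 20.9, 23.3, 23.7 and 17.1 CPM at 6m and 22.0, 31.9, 32.9 and 40.8 CPM at 24m (chr17:80335472-80370014, - strand), with overlap between ages and a log2 fold change of 0.59 ± 0.18 at an adjusted p of 0.0171. The call was lost without 6m replicate 1 or 4 and without 24m replicate 3 or 4, at log2 fold changes of 0.578, 0.50, 0.57 and 0.45. Hnrnpll also lost it with the GC trend (0.31), the canonical length trend (0.13) or the exonic length trend (0.048) removed. Its paralog Hnrnpl, which binds CA repeats, had 383, 376, 385 and 414 CPM at 6m and 353, 307, 301 and 277 CPM at 24m, a log2 fold change of -0.33 ± 0.091 at an adjusted p of 0.0101. The count ratio of Hnrnpl to Hnrnpll was 18.4, 16.2, 16.2 and 24.3 at 6m and 16.1, 9.63, 9.14 and 6.79 at 24m. The ages did not overlap, but the highest aged ratio, in replicate 1, lay just below the lowest young one. With the canonical length trend removed, the log2 fold changes of Hnrnpl and Hnrnpll were -0.076 and 0.13. With the exonic length trend removed they were -0.48 and 0.048.

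The hnRNP F and H genes bind runs of guanines, and none of the 4 was called, but the ratio of 2 paralogs differed between ages. Hnrnph1 had 102, 109, 117 and 96.0 CPM at 6m and 62.3, 81.3, 71.7 and 87.4 CPM at 24m, a log2 fold change of -0.49 ± 0.12 at an adjusted p of 0.00485. Hnrnph2, on the X chromosome, had 49.5, 61.2, 58.3 and 41.4 CPM at 6m and 51.3, 69.4, 65.9 and 86.4 CPM at 24m, which did not pass the adjusted p (log2 fold change of 0.38 ± 0.17 at an adjusted p of 0.0767). The count ratio of Hnrnph1 to Hnrnph2 was 2.06, 1.78, 2.01 and 2.32 at 6m and 1.21, 1.17, 1.09 and 1.01 at 24m. In young libraries Hnrnph1 had about 2.04 counts for each Hnrnph2 count on average, and in aged libraries 1.12, with no overlap. Hnrnph3 passed the adjusted p downward (-0.37 ± 0.094), and Hnrnpf did not pass it (0.055 ± 0.13). With the GC trend removed Hnrnph1 (-0.77) and Hnrnph3 (-0.63) were called lower, and with the exonic length trend removed both were too.

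No gene of the hnRNP A and B group, which binds silencers in exons and introns, was called. Hnrnpa1 had 160.1, 185, 182 and 169 CPM at 6m and 134, 160.0, 157 and 186 CPM at 24m, and the ages overlapped (log2 fold change of -0.13 ± 0.11 at an adjusted p of 0.31). Hnrnpa2b1 (-0.13) and Hnrnpa0 (-0.089) likewise did not pass the adjusted p. Hnrnpab did, with 190.4 ± 9.89 CPM (SD, n = 4) and 146 ± 15.7 CPM (SD, n = 4) (log2 fold change of -0.38 ± 0.093 at an adjusted p of 0.00572). Hnrnpa3 was nearest to 0 in the class (0.0018 ± 0.30), at only 2.64 ± 1.04 CPM (SD, n = 4) and 2.65 ± 0.552 CPM (SD, n = 4). Genes of this kind have many processed pseudogenes, and how reads with several matches were counted is not given in the sources used here, so their levels are uncertain.

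The remaining hnRNP genes stayed within the fold threshold. Hnrnpr, a relative of Syncrip that travels with messenger RNAs in axons, had 28.9, 35.6, 32.5 and 25.2 CPM at 6m and 33.0, 44.1, 45.1 and 56.1 CPM at 24m, a log2 fold change of 0.55 ± 0.16 at an adjusted p of 0.0151. Hnrnpc, which covers uridine tracts and keeps cryptic exons out, had 160.1, 155, 164 and 182 CPM at 6m and 146, 135, 131 and 143 CPM at 24m. It was lower in every aged library, by a small amount (log2 fold change of -0.25 ± 0.079 at an adjusted p of 0.0195). Hnrnpk (0.23), Hnrnpd (-0.22) and Hnrnpdl (0.054) did not pass the adjusted p.

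By class and library, the summed level of the 24 Sm and Lsm genes was 1748, 1570.3, 1595 and 1776 CPM at 6m and 1239.5, 938, 938 and 833 CPM at 24m. All aged libraries were below all young ones, and 24m replicate 1 was the highest aged library. The 11 SR genes summed to 678, 689.5, 718 and 649 CPM at 6m and 520.4, 539, 530.0 and 545 CPM at 24m, again without overlap. The 20 hnRNP genes summed to 2291, 2458, 2481 and 2277 CPM at 6m and 1993, 2346, 2363 and 2670.5 CPM at 24m, and the ages overlapped. The 9 SF3 genes summed to 1127, 1109, 1107 and 1181 CPM at 6m and 1125, 1014, 1034 and 974 CPM at 24m, with 1 aged library inside the young range. A sum follows its most abundant genes, so the plot of class means on the log2 scale weighs genes equally. In 27 of the 29 called genes 24m replicate 1 was the aged library nearest to the 6m mean. Without it 24 of the 64 genes were called lower and 9 higher, and the median of the Sm and Lsm genes was -0.97.

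**Figure D3:**
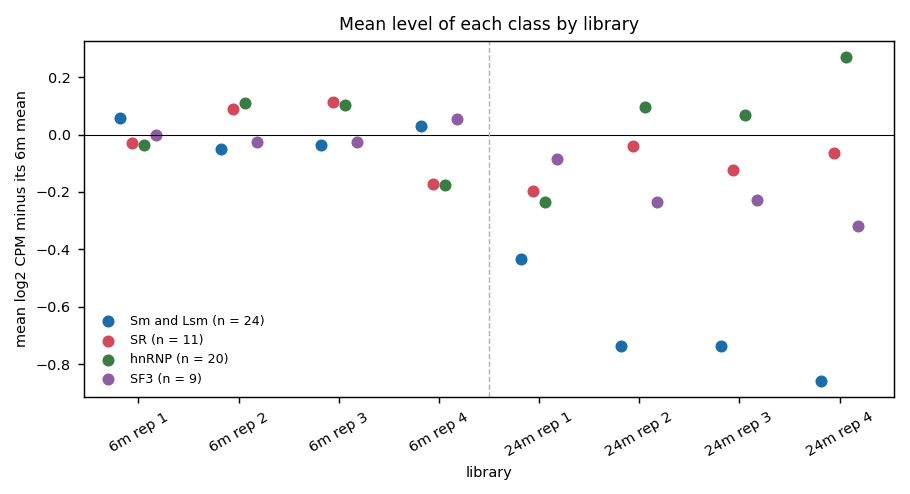
Mean log2 CPM of each class in each library, as the difference from the mean of that class over the 6m libraries; each point is 1 class in 1 library. The Sm and Lsm points of the 4 aged libraries all lie below those of the young libraries, with 24m replicate 1 the nearest to them, while the hnRNP points overlap between ages.

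**Figure D4:**
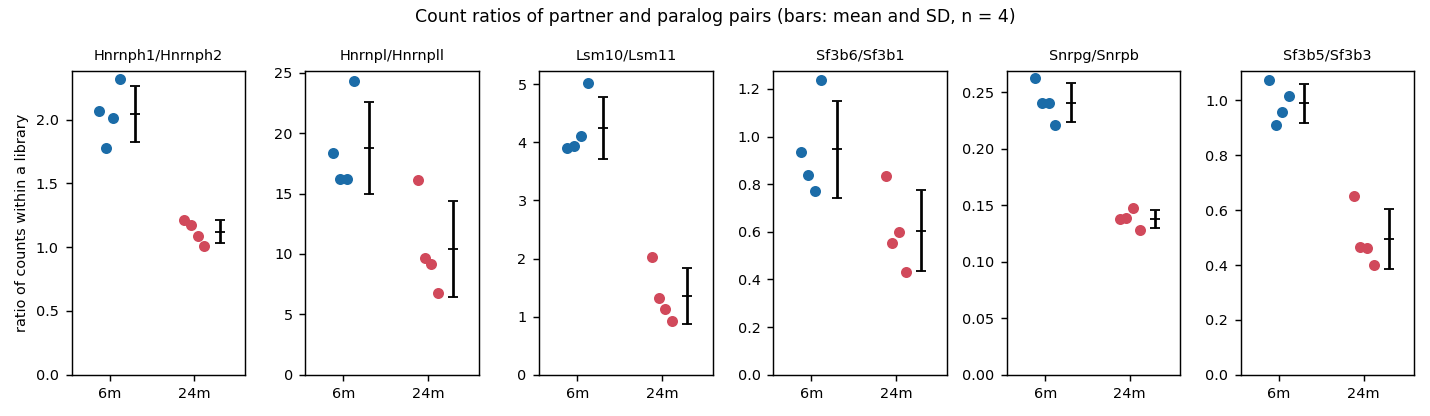
Ratio of the counts of 6 pairs of paralogs or partners within each library at 6m (blue) and 24m (red); bars are the mean and SD of 4 libraries. The ages do not overlap for any pair but Sf3b6/Sf3b1, and Hnrnph1/Hnrnph2 goes from a mean of 2.04 to 1.12.

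Most Sm and Lsm transcripts are short, and fold change followed transcript length across the whole data set. The median canonical transcript length was 1987 bases for Sm and Lsm genes, 2899 for SR, 3260 for SF3 and 3733 for hnRNP genes, against 3293 over all genes tested. Spearman's correlation between log2 fold change and this length was 0.56 across 16677 genes and 0.60 across the 64 genes here, which share the same libraries and are not independent. With that trend removed, the Sm and Lsm median was -0.46 instead of -0.80, that of the Sm core -0.57 and that of the U6 ring -0.65. The median of the 4 U1 and U2 genes moved from -0.82 to -0.26. Of the 23 genes called lower 13 remained called lower, and of the 6 called higher 2 remained. Snrpg (-0.62), Snrpf (-0.65), Snrpb2 (-1.09), Lsm4 (-1.61, with a canonical transcript annotated at 5524 bases), Lsm6 (-1.08), Srsf11 (-1.09) and Sf3b5 (-1.12) were still called. Srsf9 (-0.32), Snrpe (-0.19), Snrpd1 (-0.13), Snrpd2 (-0.57), Sf3b6 (-0.058), Lsm5 (-0.065), Lsm8 (-0.55), Snrpa1 (-0.37) and Lsm11 (0.32) no longer were. Of the called genes, Lsm2 (0.07) and Snrpc (0.086) changed sign. Among genes past the adjusted p but under the fold threshold, Snrpb (0.13), Sf3a3 (0.10) and Srsf5 (0.024) turned above 0. Srsf1 (-0.080) and Hnrnpr (-0.20) turned below 0. Hnrnpd (-0.93), Sf3b1 (-0.67) and Srsf6 (-0.70) were newly called lower and Lsm12 (0.62) newly higher. This alternative was chosen after seeing the data. Removing the trend over total exonic length instead kept 18 of the 23 lower and 3 of the 6 higher calls, and lost those of Snrpf (-0.54), Snrpd3 (-0.50), Lsm2 (-0.49), Lsm5 (-0.34) and Sf3b6 (-0.40) among the lower and of Lsm14a, Hnrnpu and Hnrnpll among the higher. The hnRNP genes called lower then went from 1 to 5, Hnrnpc, Hnrnpd, Hnrnph1 and Hnrnph3 being added.

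**Figure D5:**
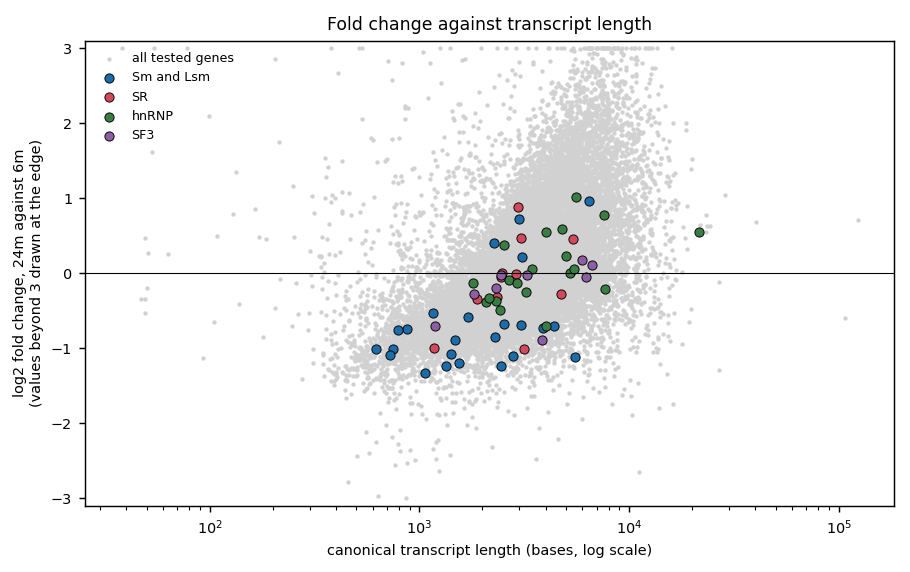
Log2 fold change (24m against 6m) against canonical transcript length in bases (log scale); grey points are all tested genes and coloured points the 4 classes. Longer transcripts tended to be higher at 24m (Spearman 0.56 across 16677 genes), and the Sm and Lsm genes lie mostly at the short end, at a median of 1987 bases.

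Per kilobase of canonical transcript, a scale on which mean levels of different genes may be set side by side, Hnrnpl had the highest level of the 64 genes at 6m. It stood at 181 CPM per kilobase at 6m and 144 at 24m, and Snrpd2 at 177 and 83.8. Snrpb stood at 176 and 122, and Sf3b2, a large SF3B subunit, at 127 and 125. The hnRNP U genes were at 11.4 (Hnrnpu), 22.7 (Hnrnpul1) and 13.8 (Hnrnpul2) CPM per kilobase at 6m and at 19.6, 33.2 and 28.0 at 24m. The lengths behind these levels come from a later annotation release than the counts.

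Other genes of the splicing pathway were counted in lists that hold none of the 64. Of the 10 tested genes of the minor spliceosome, which removes the rare U12-type introns, 8 were lower and 0 higher, with a median log2 fold change of -0.86. They included Snrnp25 (-1.10) and Zcrb1 (-1.05), proteins of U11/U12 snRNP. Of 22 other snRNP proteins 7 were lower and 0 higher (median -0.33), with Snrnp27, of the tri-snRNP, at -1.39. Of 15 U2 auxiliary and branch site factors 6 were lower and 0 higher (median -0.46), with U2surp at -1.37 and U2af1l4 at -0.98. Of 30 Prp19 complex and catalytic step factors 8 were lower and 2 higher (median -0.26). Bud31 (-0.79) and Ppie (-0.78) were the lowest of them and Prpf18 (0.85) and Cdc40 (0.85) the 2 called higher. With the canonical length trend removed the medians were -0.23 (minor spliceosome), -0.32 (other snRNP), -0.22 (U2 auxiliary) and -0.17 (Prp19), and with library totals alone -0.64, -0.12, -0.25 and -0.040. For these first 3 lists the count of 0 called higher in edgeR was 0 in DESeq2 and limma-voom too, but 1 of the other snRNP genes was called higher by DESeq2 on quantile-normalized counts, and at an unadjusted p under 0.05 the counts higher were 0, 2 and 1. The lists share some genes, and set against the 18.3% of all genes called lower their counts are a description.

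The SMN complex loads Sm rings onto snRNAs, after methylation of some Sm proteins. Of 17 tested genes of these steps 3 were lower and 1 higher (median -0.27, or -0.047 with the canonical length trend removed and -0.052 with library totals alone), with Coprs (-1.12) and Gemin7 (-0.94) the lowest and Gemin5 (0.58) higher. The shares called were 17.6% lower and 5.88% higher, beside 18.3% and 25.3% of all genes. Among 35 SR protein kinases and SR-related genes 10 were lower and 4 higher (median -0.16, or -0.37 with the canonical length trend removed, but 0.065 with scaling by library totals alone), or 28.6% and 11.4%. Clk1, a kinase that phosphorylates SR proteins, stood at -1.27 and Rbm39 at -1.29, while the kinase Dyrk1a was higher at 1.28 and Thrap3 at 0.68. Among 18 genes of the exon junction complex and nonsense-mediated decay 5 were lower and 3 higher (median -0.36, or -0.084 and -0.15 under the same alternatives), or 27.8% and 16.7%. Its core gene Rbm8a stood at -0.80 and Upf3b at -1.08, against 1.77 for Smg1. The list of other hnRNP-related and neuronal splicing regulators was the one with more genes called higher (17) than lower (5) among 54 tested, or 31.5% higher beside 25.3% of all genes, with a median of 0.063 that turned to -0.078 with the GC trend and to -0.10 with the exonic length trend removed, and to -0.012 without 6m replicate 4. In it Mbnl1, which governs developmental exon switches, stood at 2.29 and Celf5 at 1.84, and Nova1, a neuronal splicing regulator, at -1.29.

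The annotation places a gene on the opposite strand over part of several of these genes, among them Hnrnpu (Cox20), Hnrnpul2 (Ttc9c), Hnrnpa1 (Cbx5), Srsf11 (Lrrc40), Srsf9 (Gatc), Snrpd2 (Qpctl) and Snrpf (Ccdc38). The library kit keeps strand, but the strand setting used in counting is not given in the sources used here, so reads of such pairs may not have been told apart.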

How the data were processed

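Per the labels and the study's methods, poly(A)-selected directional libraries were made from brain hemispheres of 8 male mice, 1 library per animal, with 4 animals per age. The authors trimmed reads with Trim Galore 0.4.11 (processing notes and methods), mapped them to GRCm39 with HISAT2 2.1.0 (version from the processing notes) and deposited raw read counts per gene made with featureCounts; strand and multiple-match settings are not given in the sources used here. The deposited counts were used as they are, and no column was left out. A gene was kept where 4 or more libraries had over 5 counts for it. Counts were scaled with TMM factors and tested with edgeR 4.0.16 (quasi-likelihood F-test, age as the only term, R 4.3.3), with Benjamini-Hochberg adjustment over all 16730 genes. The study's fold and adjusted p thresholds of 0.58 and 0.05 were kept. CPM values use the TMM-scaled library sizes, an SE is the log2 fold change divided by the square root of F, and medians over a class carry no test. Total counts of 63460940 to 103462414 per library put the lowest gene named with its library values, Srsf12, at 91 counts or more. In simulated counts (16730 genes, 24m against 6m), 89.5% of 200 genes changed by 1 on the log2 scale were called, as were 7 unchanged genes. These counts had the same dispersion for all genes, no length trend and no deviating library, so the rates need not hold for the data. The common biological coefficient of variation was 0.184. Each library came from a different animal, so none was merged. Replicate pairs of 1 age differed by more than counting noise (chi-square per degree of freedom 8.18 to 417 over 12 pairs).

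Gene positions, strand, canonical transcripts and promoters came from GENCODE vM39 (GRCm39, matched by gene identifier for 22281 of 22430 genes), a later release than the one the authors counted with. Named genes were, in each class, the 3 highest and the 3 lowest called genes by log2 fold change and the gene nearest 0, with Hnrnpu added, and up to 2 called genes each way in each list of other splicing genes. 1 gene that this rule names is not reported here. Other members that appear with library values, and the pairs for ratios and the promoters shown, were chosen after their values were seen. The members and lists were chosen with earlier results of these data known. Alternatives were DESeq2 1.42.0, DESeq2 on quantile-normalized counts, limma-voom (limma 3.58.1), other scaling, filters and thresholds, a replicate block, removal of GC and length trends by lowess offsets (span 0.3), and leaving out each library.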

Additional observations from a re-analysis of the deposited data

Results flagged for a closer look

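Among the 44 groups of 4 libraries examined, made of the 18 named genes and the mean level of each class at each age, 2 held a library far from the others of its age, where chance flags about 1 in 20 groups. For Lsm14b, 6m replicate 1 stood at 75.58 CPM, below the other young libraries at 86.64 to 88.2 CPM. For Srsf9, 24m replicate 4 stood at 48.5 CPM, below the other aged libraries at 56.16 to 56.98 CPM, and thus farther from the 6m level.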

How the results depend on the processing

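Of 64 genes, 23 were called lower and 6 higher, and the medians were -0.80 (Sm and Lsm), -0.056 (SR), -0.044 (hnRNP) and -0.057 (SF3). DESeq2, other size factors (RLE), limma-voom, both other low-count filters and an adjusted p of at most 0.01 gave 23 to 24 lower and 5 to 6 higher. Leaving out each library gave 23 to 24 lower, 5 to 9 higher, and medians of -0.97 to -0.72 (Sm and Lsm), -0.13 to -0.012 (SR), -0.10 to 0.044 (hnRNP) and -0.15 to -0.027 (SF3). Hnrnpm lost its call without 24m replicate 1, at a log2 fold change of -0.56, and Snrpb, Srsf10, Hnrnpr and Hnrnpul1 gained one, the last pair also without 6m replicate 2. Snrpa, at the threshold, gained one under most of these settings. Hnrnpll lost its call in most alternatives. Scaling by library totals alone gave 15 lower and 12 higher, with medians of -0.60 (Sm and Lsm), 0.16 (SR), 0.18 (hnRNP) and 0.16 (SF3). It raised the median of all genes to 0.21 and the share of higher calls among all calls from 58.1% to 75.7%. Quantile normalization before DESeq2 gave an Sm and Lsm median of -0.94 and a share of 47.9%, and Srsf12 (0.57) lost its call. Without a fold threshold, 12 genes were called higher and 34 lower. With the GC trend removed, 26 were called lower, Hnrnph1, Hnrnph3 and Snrpb being added, and 3 higher, with medians of -0.96 (Sm and Lsm), -0.29 (SR), -0.17 (hnRNP) and -0.18 (SF3). With the trend over exonic length removed, 18 of the 23 lower and 3 of the 6 higher calls were kept, and the medians were -0.29 (SR), -0.17 (hnRNP) and -0.33 (SF3). The trend over canonical transcript length, an alternative added after seeing the data, gave 3 higher and 16 lower. The medians were -0.46 (Sm and Lsm), -0.12 (hnRNP) and -0.13 (SF3). Of the called genes, Lsm2 (0.070) and Snrpc (0.086) changed sign, as did some uncalled genes, Snrpb (0.13) among them. The cause of these shifts was not tested.

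Same-numbered libraries did not deviate together more than others (correlations -0.348 to 0.271, beside -0.403 to 0.377 for other numbers). No pairing by replicate number was visible, which does not exclude one. A replicate block gave 23 lower and 5 higher and an Sm and Lsm median of -0.83. The replicate block with the GC trend removed gave 3 higher, with medians of -0.99 (Sm and Lsm), -0.32 (SR) and -0.19 (SF3), and the replicate block with the exonic length trend removed gave medians of -0.29 (SR) and -0.34 (SF3). With 4 animals of 1 sex per age, the change of Hnrnpa3, at 2.64 and 2.65 CPM with an SE of 0.30, was poorly resolved, and levels come from a mixture of cell types.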
